A study of Mus musculus with 4 samples.

Results

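The E proteins and their Id inhibitors were followed here as 7 genes, *Tcf3*, *Tcf4* and *Tcf12* on one side and *Id1*, *Id2*, *Id3* and *Id4* on the other, among 21938 protein-coding genes of the mouse. Each gene was taken with its body and 50 kb on each side, and all open chromatin peaks in these windows were members. Joining the peaks of the 4 libraries gave 357570 regions in the genome, and 331 of them lay in the 7 windows. The E protein genes held 183 of these regions over 939 kb, and the *Id* genes held 148 over 412 kb.

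ATAC-seq, which marks open chromatin by transposase insertion, had been run on 2 SMC lines and 2 non-SMC lines from a mouse model of small cell lung cancer, with 1 library per line. All 4 lines were untreated and came from lung tumors of the *RP* model, mice with floxed alleles (L/L) of both *Rb1* and *Trp53* on a mixed background of C57Bl/6, Balb-c and S129, in which a Cre adenovirus driven by the CMV promoter had been given into the airway. Loss of *Rb1* and *Trp53* was therefore shared by both types. SMC were sorted as NCAM high, CD44 low cells and non-SMC as NCAM low, CD44 high cells. Each type was represented by 2 lines, and for 2 against 2 an exact permutation test cannot give a two-sided p below 0.333, so differences are given beside the spread between lines, with no p-value. Where values of the lines of a type stand together, that of line 1 comes first.

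E proteins are basic helix-loop-helix transcription factors that pair with cell-type-specific partners of the same class, such as NEUROD1, and bind E-box sequences. Id proteins have the helix-loop-helix but lack the basic DNA-binding part, so they hold E proteins in complexes that do not bind DNA. *Id* genes are classical targets of BMP signaling through SMAD proteins, and in neuroendocrine tumor cells the balance of E proteins and Id proteins bears on how proneural partners work.

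The sequences below, all outside annotated exons of the 7 genes, are those to which the results return. They are shown on the plus strand of GRCm38, the assembly of mm10, as 150 bp around the peak summit from the RefSeq genome. Capitals mark matches on either strand to 5 motifs. These are CAGCTG, the E-box bound by many E protein pairs with proneural partners, CAGGTG and, as the last of the E-boxes searched, CAGATG, then TGANTCA, which is the AP-1 motif, and GGCGCC, a GC-rich palindrome. The first lay in an intron of *Tcf12* and had a peak in the SMC libraries alone, and the second, beyond the 3′ end of the same gene, had the opposite pattern.
*Tcf12*, SMC, chr9:71861758-71861907: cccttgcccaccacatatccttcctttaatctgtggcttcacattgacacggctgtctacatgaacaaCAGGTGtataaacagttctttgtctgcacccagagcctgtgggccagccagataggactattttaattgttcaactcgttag
*Tcf12*, non-SMC, chr9:71826369-71826518: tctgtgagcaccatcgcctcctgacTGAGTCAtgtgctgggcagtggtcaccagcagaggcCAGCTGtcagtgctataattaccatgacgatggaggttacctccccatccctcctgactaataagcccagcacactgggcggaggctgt
The next sequence followed the 3′ end of *Id2* and was open in both SMC libraries, whereas those downstream of *Id1*, inside *Bcl2l1*, and downstream of *Id4* were open in both non-SMC libraries.
*Id2*, SMC, chr12:25093007-25093156: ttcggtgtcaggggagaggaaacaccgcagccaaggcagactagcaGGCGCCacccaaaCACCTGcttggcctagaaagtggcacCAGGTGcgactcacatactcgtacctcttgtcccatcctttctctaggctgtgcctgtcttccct
*Id1*, non-SMC, chr2:152782764-152782913: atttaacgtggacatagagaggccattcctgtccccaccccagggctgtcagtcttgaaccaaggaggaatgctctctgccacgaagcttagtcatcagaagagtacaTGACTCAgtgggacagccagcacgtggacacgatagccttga
*Id4*, non-SMC, chr13:48314605-48314754: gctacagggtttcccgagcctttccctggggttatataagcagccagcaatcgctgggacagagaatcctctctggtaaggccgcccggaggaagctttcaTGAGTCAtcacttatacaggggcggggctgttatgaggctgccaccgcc
The last 3 were upstream of *Id1*, *Id3* and *Id4*, and each had a peak in all 4 libraries.
*Id1*, all 4 libraries, chr2:152735162-152735311: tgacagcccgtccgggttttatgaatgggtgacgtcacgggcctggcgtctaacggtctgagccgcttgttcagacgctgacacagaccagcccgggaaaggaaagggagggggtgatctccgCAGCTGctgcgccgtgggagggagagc
*Id3*, all 4 libraries, chr4:136140440-136140589: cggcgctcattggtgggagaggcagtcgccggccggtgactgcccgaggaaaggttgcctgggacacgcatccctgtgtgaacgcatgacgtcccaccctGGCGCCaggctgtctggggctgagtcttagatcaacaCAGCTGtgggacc
*Id4*, all 4 libraries, chr13:48227848-48227997: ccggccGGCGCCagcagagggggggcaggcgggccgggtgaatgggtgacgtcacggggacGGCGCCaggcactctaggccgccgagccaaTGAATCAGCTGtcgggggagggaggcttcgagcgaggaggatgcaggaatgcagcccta

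The libraries held between 91118 and 154039 peaks. Their genome background, the lowest read pileup per position that the peak caller used, ran from 0.456 to 1.54, a 3.37-fold range of depth that did not follow the cell type. A peak's fold enrichment is its pileup plus 1 over the local background plus 1, and its −log10 q is the caller's adjusted p-value. Both grow with depth, so a peak was also placed by the percentile of its fold enrichment within its own library. The lists reached down to a −log10 p of 2.00, and their weakest peaks to a −log10 q of 0.0252 to 0.21. A −log10 q of at least 5 was reached by 14.3% and 17.1% of peaks for the SMC lines. For the non-SMC lines it was reached by 38.0% and 19.5%. Most peaks of each list were therefore weaker calls. Of the markers of the sort and state, all 4 non-SMC genes (*Cd44*, *Vim*, *Wwtr1*, *Yap1*) passed a −log10 q of 5 at their promoters in the 2 non-SMC libraries alone, and of 7 SMC genes *Chga* had the opposite pattern. Of all promoters, 5.3% had the first pattern and 1.63% the second. With all peaks counted, each of the 4 non-SMC genes also had a promoter peak in SMC line 2. By that count, 2 of the 7 SMC genes (28.6%, all promoters 3.08%) had peaks in the SMC lines alone. The other SMC markers were less clear at the threshold of 5, with 1, the sort marker gene *Ncam1*, open everywhere, 1 in none and 4 in other combinations. These are bulk libraries, in which fewer cells with an open site and less open chromatin per cell cannot be told apart.

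Most regions near the 7 genes, 71.6%, had a called peak in 1 library alone, as did 76.9% of all regions. Of the 331 regions, 16 were called in each SMC library and absent from the non-SMC lists, here termed the SMC pattern, 4.83% against 4.37% of all regions. A further 18 had the converse, or non-SMC, pattern, 5.44% against 7.33% of all regions. All 4 libraries shared 21 regions, 6.34% against 3.81% of all regions. The first share was thus close to the genome's, the non-SMC share was below it and the shared part was above it. The excess of shared regions lay in the *Id* windows, with 14 of 148, or 9.46%, whereas the E protein windows held 7 of 183, or 3.83%. Of the 21 shared regions, 13 (61.9%) lay in promoters, as did 64.8% of all shared regions. The *Id* genes are 1.16 to 4.80 kb long, against 346 kb for *Tcf4* and 269 kb for *Tcf12*. Promoters thus took up more of the *Id* windows, and their part in this contrast was not tested.

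Raising the threshold to a −log10 q of at least 5 left 90 regions in the windows. Of these, 3 had the SMC pattern (3.33%, all regions 6.12%), at *Tcf12*, *Id1* and *Id2*. The non-SMC pattern was found in 10 (11.1%, all regions 20.1%), of which *Tcf4* held 6, *Tcf12* held 2 and *Id1* and *Id2* held 1 each. All 4 libraries shared 6 (6.67%, all regions 7.26%), of which 3 were at *Id1*. *Id3* and *Tcf3* had none in either 1-sided pattern.

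Total peak numbers differed more between the lines of a type than between the types. Over the 7 windows there were 89 and 177 peaks for the SMC lines, and 128 and 104 for the non-SMC lines. The mean difference between SMC and non-SMC lines was 17 peaks, with an SD between lines of a type of 45.6. Without *Id1* and *Id3*, the 2 windows with a raised background described below, the counts in the same order were 57, 105, 99 and 79, and the mean difference was −8 with an SD of 26. Thus neither count set the types apart.

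**Figure D1:**
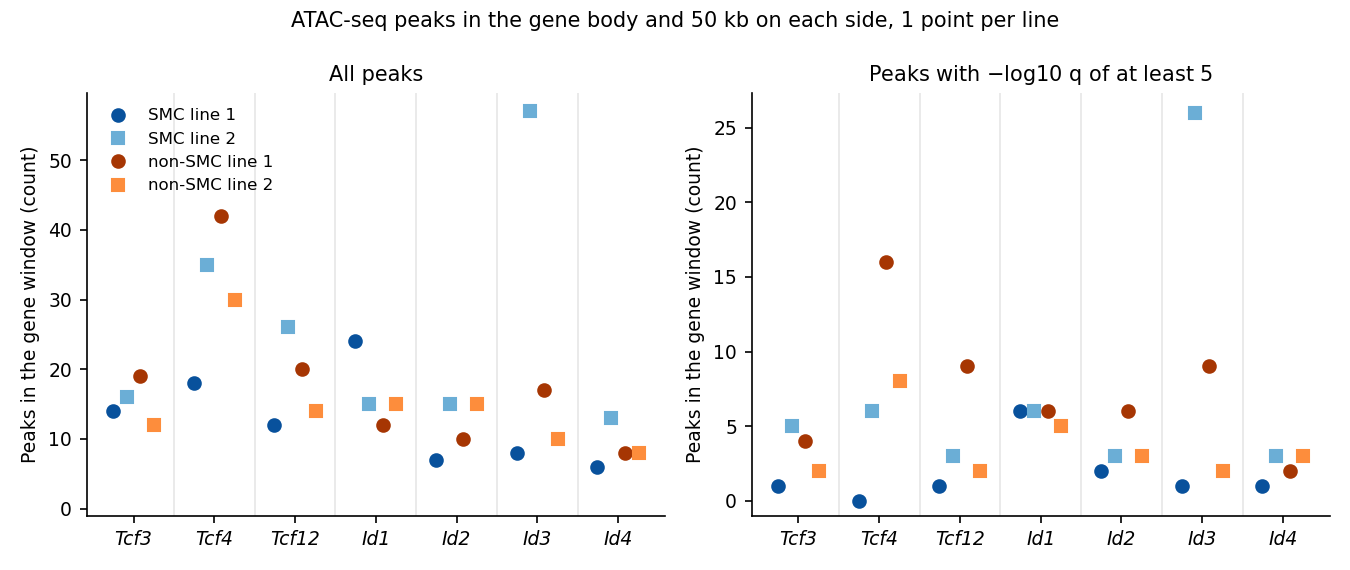
Number of ATAC-seq peaks (y axis) in the window of each gene (x axis), 1 point per line, for all peaks (left) and for peaks with −log10 q of at least 5 (right). *Tcf4* on the right is the gene whose SMC lines (0 and 6) both sit under its non-SMC lines (16 and 8), and SMC line 2 stands apart at *Id3* with 57 peaks.

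*Tcf4*, the E protein gene that encodes E2-2, had the most peaks of the 7 genes in each non-SMC library, in the longest window. Per 100 kb its non-SMC values, 9.42 and 6.73 peaks, were below those of *Tcf3*, *Id1*, *Id2* and *Id3* in the same libraries. Its window had 18 and 35 peaks for the SMC lines, and 42 and 30 for the non-SMC lines, so that the types overlapped. Peaks with −log10 q of at least 5 numbered 0, 6, 16 and 8 in the same order, and here both non-SMC lines lay above both SMC lines. The mean difference was −9 peaks for SMC minus non-SMC, with an SD of 5 between lines of a type. No other window of the 7 had types that did not overlap by this count, which placed the non-SMC lines higher in 32.2% of all gene windows and the SMC lines higher in 3.2%.

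The *Tcf4* promoter, the 6 kb around the 5′ end of the gene, was open in all 4 libraries but to unequal degree. The highest peak lay 780 to 1121 bp inside the gene, with a fold enrichment of 3.85 and 4.40 for the SMC lines, and 7.92 and 8.87 for the non-SMC lines. The −log10 q was 1.78, 4.28, 19.2 and 12.1 in that order. Both non-SMC peaks therefore passed the threshold of 5 and neither SMC peak did, a pattern held by 5.3% of all promoters. The percentiles of fold enrichment were 63.6, 81.4, 83.1 and 93.6, which did not overlap between types but left SMC line 2 and non-SMC line 1 close to each other.

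*Tcf4* has many alternative starts, and its protein-coding transcripts began at 14 separate sites. Each library had a peak within 500 bp of 5 of these sites, 2 sites had one in all 4 libraries and 6 sites had none. A single site, 251 kb into the gene, had the non-SMC pattern, with fold enrichments of 6.51 and 6.68, but these peaks belong to a region open in all libraries, chr18:69592378-69593780, whose SMC peaks end short of the 500 bp limit. A start 72.5 kb into the gene had no peak in SMC line 1, a fold enrichment of 5.12 in its counterpart, and 11.9 and 7.28 for the non-SMC lines. With all peaks counted, the libraries thus opened the same number of *Tcf4* starts, though not the same ones. These peaks were of unequal strength. The highest −log10 q at any start was 3.96 and 5.11 for the SMC lines, and 40.95 and 12.1 for the non-SMC lines.

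Inside and after *Tcf4*, 6 regions of 86 had the non-SMC pattern and 4 the SMC pattern. Both shares, 6.98% and 4.65%, were near those of all regions, 7.33% and 4.37%. The strongest with the non-SMC pattern, chr18:69547389-69548128 in an intron 205 kb from the 5′ end, had fold enrichments of 17.0 and 14.6 for the non-SMC lines, at percentiles 99.3 and 99.4 of their libraries. A region beyond the 3′ end and 362 kb from the 5′ end, chr18:69704692-69705114, reached 12.8 and 12.3. In an exon 344 kb from the 5′ end, chr18:69686836-69687144 reached 11.0 and 8.27. These 3 were among the most enriched peaks of their libraries, at percentiles of 92.2 or higher. The 4 regions open in SMC were weaker. The highest in SMC line 2, chr18:69355618-69355986, 12.4 kb into the gene, had fold enrichments of 3.43 and 7.06 for the SMC lines. The ones at 253 kb, chr18:69595905-69596075, and at 329 kb, chr18:69671674-69671990, had 5.77 and 4.18 and 3.74 and 4.92. The region open in all libraries beside the 251 kb start reached 5.24 and 4.67 for the SMC lines, and 6.51 and 7.03 for the non-SMC lines.

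**Figure D2:**
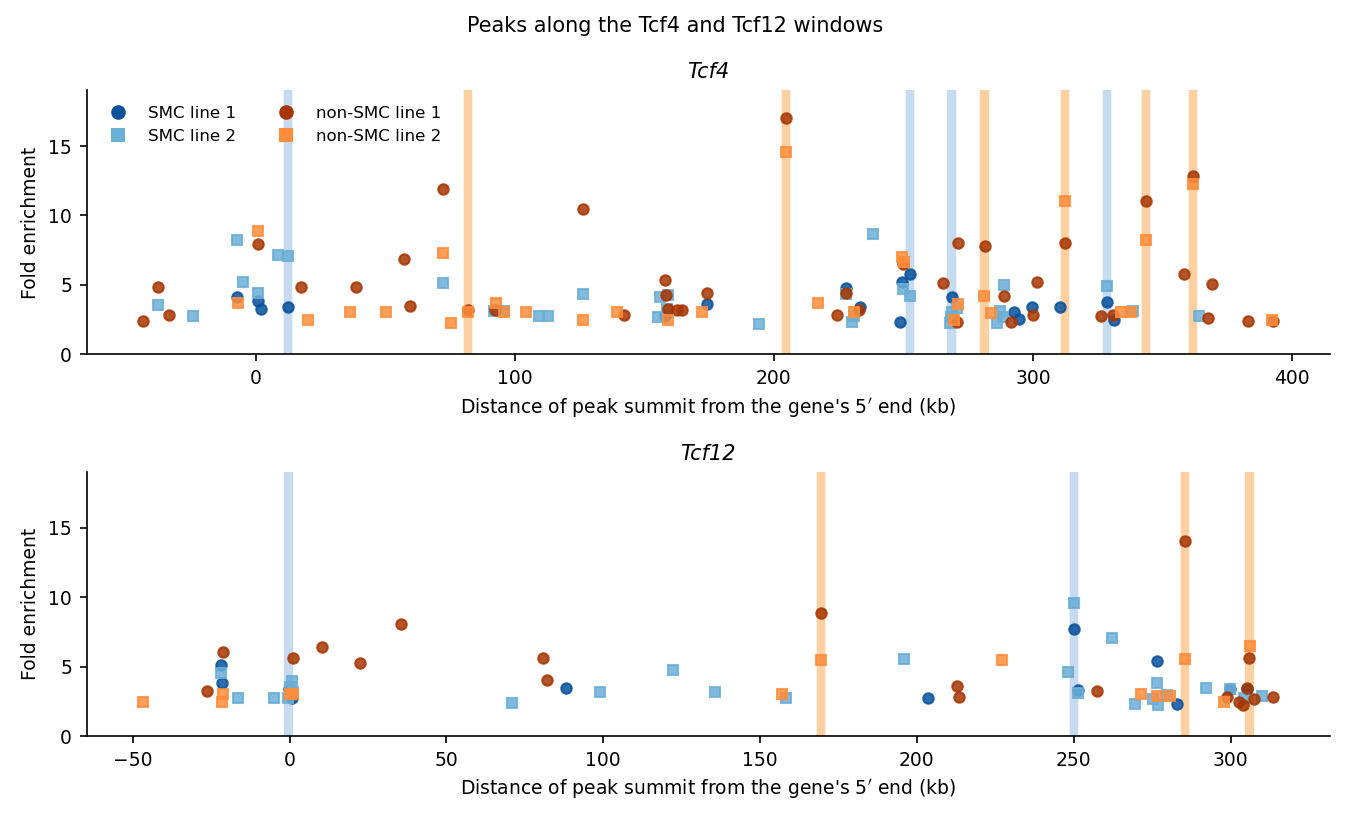
Fold enrichment of each peak (y axis) against the distance of its summit from the 5′ end of *Tcf4* (top) and *Tcf12* (bottom) in kb (x axis), 1 point per peak and color per line. Orange bands mark regions with the non-SMC pattern, and blue bands those with the SMC pattern. The highest points of *Tcf4*, 17.0 and 14.6, stand 205 kb into the gene with no SMC peak beside them.

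*Tcf12*, which encodes HEB, had regions of both kinds and a weak promoter. Its window held 12 and 26 peaks for the SMC lines, and 20 and 14 for the non-SMC lines, with no separation of the types. The highest promoter peak had a fold enrichment of 3.42, 3.94, 5.63 and 3.05 in that order, and the −log10 q passed 5 in non-SMC line 1 alone, at 6.58. In each library this was the lowest promoter peak of the 7 genes.

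The *Tcf12* intron region shown above, chr9:71861626-71861948, lay 250 kb from the 5′ end and was the strongest SMC-side region of the 7 windows. Its fold enrichment was 7.68 and 9.55 for the SMC lines, at percentiles 93.6 and 97.0, and neither non-SMC line had a peak. On the non-SMC side, chr9:71826156-71826717, 285 kb from the 5′ end and past the last exon, had 14.0 and 5.54 for the non-SMC lines. A region at 169 kb, chr9:71942474-71942900, had 8.85 and 5.49, and one at 306 kb, chr9:71805579-71805939, had 5.60 and 6.47. Regions of opposite pattern thus lay near each other around the 3′ end of this gene. The other region with the SMC pattern lay 0.251 kb before the gene and was weak (3.42 and 2.76), and one open in all libraries 21.3 kb upstream had 5.12, 4.51, 6.06 and 3.05.

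*Tcf3*, which encodes E12 and E47, had the least difference in peak number between types among the E proteins. There were 14 and 16 peaks for the SMC lines and 19 and 12 for the non-SMC lines, and the mean difference was −0.5 with an SD of 3.64. Its promoter peak, just before the gene at chr10:80433668-80434303, had fold enrichments of 4.66, 5.14, 8.14 and 6.60 in that order, at percentiles 76.6, 86.1, 84.1 and 86.4. Both non-SMC folds exceeded both SMC folds, but the percentiles overlapped. The window is gene-dense and also holds the 5′ ends of *Mex3d*, *Mbd3* and *Uqcr11*, and its most enriched region shared by all libraries was the *Mbd3* promoter (7.57, 8.66, 9.84 and 10.3). Its SMC-side regions, 69.1 kb downstream inside *Plk5* and 44.9 kb upstream, had 3.58 and 4.46 and 2.96 and 2.67, and its non-SMC-side region at *Mex3d* had 3.58 and 2.65, all at most 4.46.

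All 4 *Id* promoters held a peak in all libraries, at both thresholds, although at *Id3* the peaks with −log10 q of at least 5 were not the same ones. There SMC line 1 passed only 1238 bp inside the gene, non-SMC line 2 only before it, at −2944 bp, and no single region passed in all 4 libraries. A peak in all 4 libraries was found for 7 of 7 member promoters, where 48.7% of all promoters had one. None had the SMC pattern (3.08% of all promoters) or the non-SMC pattern (2.45% of all promoters). At −log10 q of at least 5, the 4 *Id* promoters stayed open in all libraries, as did 21.4% of all promoters, and none of the 7 had the SMC pattern, held by 1.63% of all promoters. The 3 E protein promoters each fell below that threshold in at least 1 library. *Tcf3* did so in SMC line 1 alone (3.79), the library of lowest genome background, and *Tcf4* in both SMC lines. *Tcf12* did so in both SMC lines (1.23 and 2.66) and in non-SMC line 2 (0.92).

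**Figure D3:**
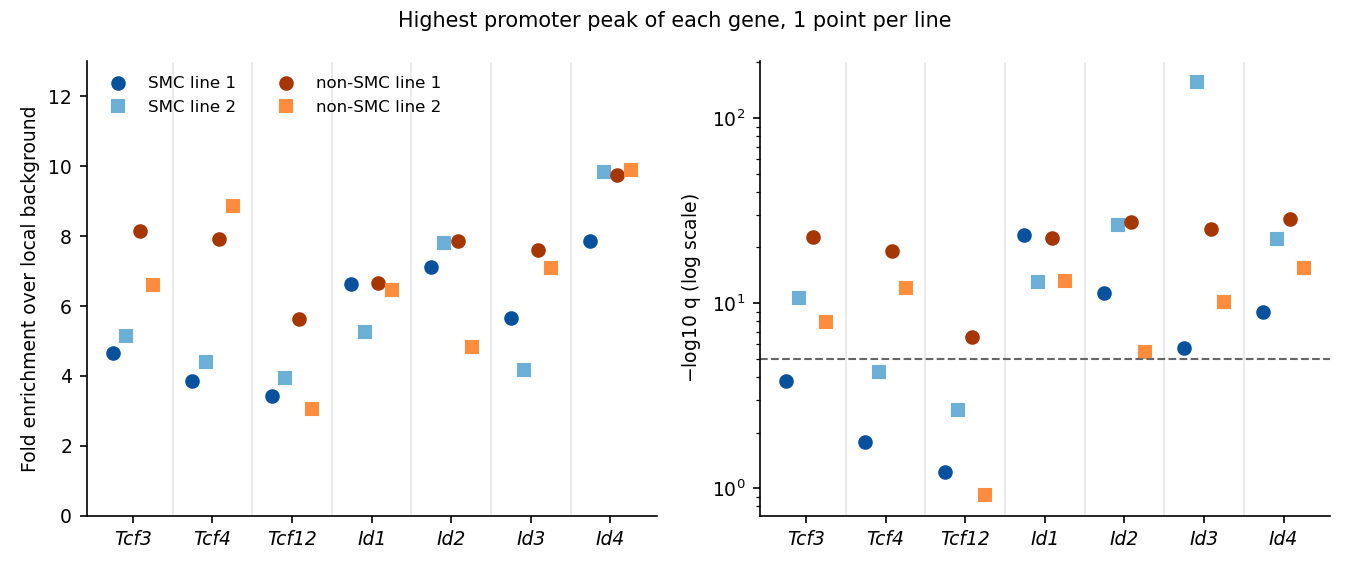
Highest peak in the 6 kb promoter of each gene (x axis), 1 point per line, as fold enrichment over local background (left) and −log10 q on a log scale (right). The dashed line marks a −log10 q of 5, which all points of the *Id* genes pass, while *Tcf4* passes it in the non-SMC lines alone.

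*Id2*, whose product is known to bind the RB protein as well as E proteins, had a clear SMC-side region next to a promoter open everywhere. Its window held 7 and 15 peaks for the SMC lines and 10 and 15 for the non-SMC lines. The highest promoter peak had a fold enrichment of 7.12, 7.79, 7.86 and 4.82 in the same order, at percentiles 91.9, 94.3, 82.9 and 75.4. Both SMC percentiles were above both non-SMC percentiles.

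About 4 kb from the 5′ end and past the 3′ end of *Id2*, the region chr12:25092807-25093232 had a fold enrichment of 5.95 and 7.93 for the SMC lines, and no peak in either non-SMC line. Its −log10 q was 7.17 and 24.0. The sequence printed for it holds GGCGCC and 2 matches to CAGGTG. A neighbor 4.67 kb from the 5′ end was open in all 4 libraries, with 3.23, 2.89, 5.28 and 3.78, so the 2 sides of this short stretch differed in pattern. On the non-SMC side, *Id2* had 4 regions, whose fold enrichments ran from 3.22 to 5.23, the highest of them 46.5 kb upstream (5.23 and 4.88). One of them, chr12:25097603-25097995, lay beside the outermost of the 2 start sites of *Id2*, whose 500 bp on each side had the non-SMC pattern. In non-SMC line 2 the higher of the 2 peaks there (4.82) belongs to the promoter region open in all 4 libraries. After thinning to a common depth, chr12:25097603-25097995 was left in non-SMC line 2 alone.

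*Id4* had the highest promoter enrichment of the 7 genes in each library. The fold enrichment was 7.87 and 9.84 for the SMC lines, and 9.74 and 9.89 for the non-SMC lines, at percentiles 94.1, 97.3, 89.4 and 95.6. The types overlapped on both scales. Its window held 6, 13, 8 and 8 peaks in the same order and no region with the SMC pattern.

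Outside its promoter, *Id4* had a region 33.3 kb upstream, chr13:48227754-48228544, that was open in all libraries with fold enrichments of 5.91, 7.75, 13.7 and 13.3. The non-SMC percentiles, 96.9 and 98.9, were above the SMC ones, 86.6 and 94.3. This stretch overlaps an exon of the RefSeq transcript Gm36183. The region with the non-SMC pattern, chr13:48314611-48314958, 53.5 kb downstream, had 4.83 and 12.8 for the non-SMC lines, and after thinning to a common depth it was left in non-SMC line 2 alone.

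*Id1* and *Id3*, the inhibitors most often named as BMP targets, could be compared less directly, because 1 SMC library carried a raised local background at each. At *Id3* the local background of SMC line 2 had a median of 62.2 times its genome background, from 38.8 to 93.9 over 57 peaks. The medians elsewhere were 2.18 in SMC line 1, and 1.76 and 1.94 for the non-SMC lines. Of all peaks of SMC line 2, 0.234% had a local background at or above the lowest one in this window. At *Id1* the median was 8.29 in SMC line 1, from 3.85 to 18.6, against 2.66 in SMC line 2 and 1.97 and 2.44 for the non-SMC lines. In the other 5 windows the medians ran from 1.00 to 3.81. The origin of the raised background was not tested.

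**Figure D4:**
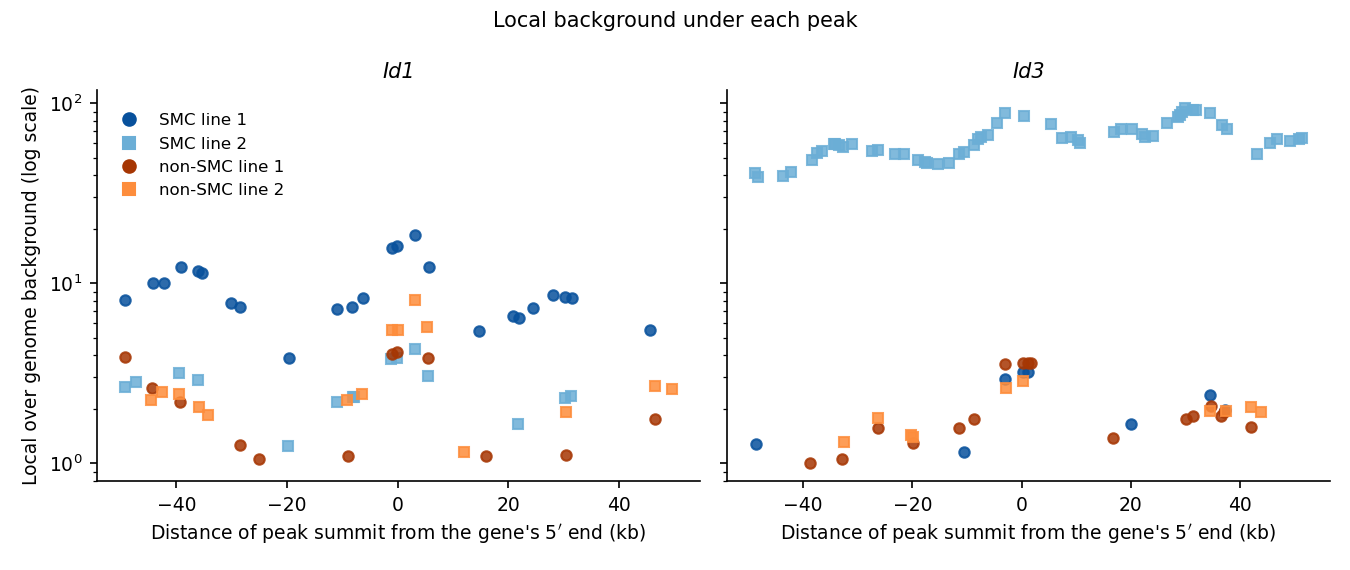
Local background under each peak divided by the genome background of the library, on a log scale (y axis), against the distance of the summit from the 5′ end in kb (x axis), at *Id1* (left) and *Id3* (right), colored by line. SMC line 2 lies between 38.8 and 93.9 over the whole *Id3* window, and SMC line 1 between 3.85 and 18.6 over the *Id1* window.

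Number and height of the *Id3* peaks stood apart in the same library. The window held 8 and 57 peaks for the SMC lines, and 17 and 10 for the non-SMC lines, and 41 of its 59 regions were seen in SMC line 2 alone. Pileups in SMC line 2 ran from 98 to 549 reads, against at most 47 in any other library, yet its median fold enrichment was 1.61, the lowest of all windows and libraries. *E2f2*, whose 5′ end lies 28.9 kb from that of *Id3*, sits in the same raised stretch.

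At the *Id3* promoter the highest peak had fold enrichments of 5.66 and 4.17 for the SMC lines, and 7.61 and 7.09 for the non-SMC lines. Against the genome background in place of the local one, the same peaks came to 9.61, 217, 19.3 and 11.6. SMC line 2 was thus the lowest on one scale and the highest on the other, and the highest peak lay before the gene in the non-SMC lines and inside it in the SMC lines. Without SMC line 2, the peak of SMC line 1 was lower than both non-SMC peaks on both scales, but its percentile, 85.4, lay between theirs, 81.8 and 88.5. The 3 regions of *Id3* with the SMC pattern were all faint in SMC line 1, at percentiles of 2.02 to 10.9. Their mean percentiles over both SMC lines were 4.305 to 7.594, so their fold enrichment was low in SMC line 2 as well. The 1 region with the non-SMC pattern, about 20 kb upstream, had fold enrichments of 6.49 and 3.17.

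*Id1* had more peaks in SMC line 1 than in any other library, 24 against 15 in SMC line 2, and 12 and 15 for the non-SMC lines. At −log10 q of at least 5 the counts were 6, 6, 6 and 5, with a mean difference of 0.5 and an SD of 0.5. Thus the strong peaks of *Id1* were nearly equal in number. The highest promoter peak had fold enrichments of 6.62, 5.24, 6.66 and 6.45 in the same order, and a region 5.58 kb past the 5′ end was open in all 4 libraries with 3.94, 4.75, 8.97 and 7.10.

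Both patterns were found around *Id1*, with 4 of 36 regions on the SMC side (11.1%, all regions 4.37%) and 2 on the non-SMC side (5.56%, all regions 7.33%). The highest SMC-side region lay 10.9 kb upstream at chr2:152725118-152725613, with 3.95 and 6.39 for the SMC lines, and those 19.7 kb upstream and 31.5 kb downstream had 4.71 and 3.42 and 3.76 and 3.24. The highest non-SMC-side region, shown above, lay 46.6 kb downstream inside *Bcl2l1* at chr2:152782494-152783085, with 8.59 and 5.16, and the other, 9.05 kb upstream, had 3.81 and 7.0. The window also holds the 5′ ends of *Mcts2*, whose promoter was open in all libraries, and of *Cox4i2*, whose promoter was open in line 1 of each type. A region 3.21 kb from the 5′ end passed a −log10 q of 5 in both SMC lines (14.4 and 10.8) and in neither non-SMC line, although non-SMC line 2 had a weak peak there. In SMC line 1 its local background was 18.6 times that of the genome.

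The sequences under the regions differed by pattern. The AP-1 motif TGANTCA was found within 100 bp of the summit in 14 of the 18 regions open in non-SMC (77.8%) and in 0 of the 16 regions open in SMC. Over all regions of the genome with these patterns the shares were 55.4% and 6.57%. All 6 such regions of *Tcf4* and all 3 of *Tcf12* held it, as did 2 of 4 at *Id2*, 1 of 2 at *Id1* and the single ones at *Id3* and *Id4*, while the 1 at *Tcf3* did not. The contrast between the patterns was therefore of the same direction as in the genome as a whole, and it rested on few regions.

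E-boxes followed the other side in part. CAGCTG was found in 6 of 16 SMC-side regions (37.5%, all regions of that pattern 20.96%), 1 of 18 non-SMC-side regions (5.56%, all 14.0%) and 10 of 21 shared regions (47.6%, all 13.5%). CAGGTG was found in 4 of 16 SMC-side regions (25%, all 31.5%), 1 of 18 non-SMC-side regions (5.56%, all 6.56%) and 2 of 21 shared regions (9.52%, all 12.3%). CAGATG was found in 3, 2 and 1 regions in the same order, below the shares of all regions. *Tcf12* held both CAGCTG and CAGGTG in its 2 SMC-side regions, within the 200 bp searched. The CAGCTG of its intron region lies outside the 150 bp printed above.

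GGCGCC, a palindrome found in BMP-responsive elements, stood in 10 of 21 shared regions (47.6%, all 12.5%), 2 of 16 SMC-side regions (12.5%, all 2.33%) and 0 of 18 non-SMC-side regions (all 1.16%). The shared regions with it were 2 each at *Tcf3*, *Id1*, *Id3* and *Id4* and 1 each at *Tcf4* and *Id2*. Of the 21 shared regions, 13 lay in promoters and 8 of these held GGCGCC, where 15.7% of all shared promoter regions held it. A motif match is a description of the sequence and not a measured binding site.

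**Figure D5:**
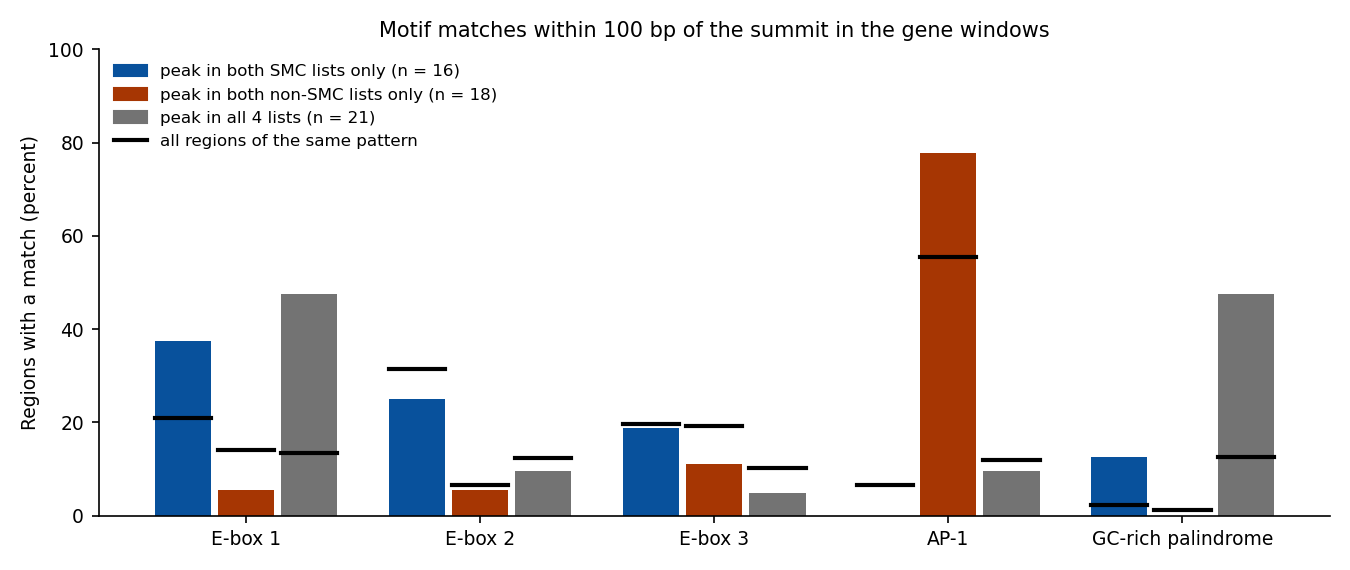
Percent of regions with a match within 100 bp of the summit (y axis) for 3 E-boxes (numbered in the order in which the text gives them), the AP-1 motif and the GC-rich palindrome (x axis), for the 16 SMC-side, 18 non-SMC-side and 21 shared regions of the 7 windows (bars) and for all regions of the same pattern (black lines). The AP-1 bar stands at 77.8% for non-SMC and at 0 for SMC.

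The shared regions of *Id1* and *Id4* printed above had a run of 20 bases in common, tgaatgggtgacgtcacggg, which was noticed after the sequences had been read. It lies at chr2:152735183-152735202 and at chr13:48227886-48227905, and these were its 2 places on the numbered and sex chromosomes. The summits of the 2 regions lie 1.01 kb upstream of *Id1* and 33.3 kb upstream of *Id4*. The run includes TGACGTCA, the palindrome bound by CREB-type factors, which stood in 2.3% of all regions shared by the 4 libraries. Among the 21 shared regions of the windows, these 2 alone held it. After thinning to a common depth, the *Id4* region was still open in all 4 libraries and the *Id1* region no longer had a peak in SMC line 2. The *Id3* and *Id4* sequences had the 10 bases ggcgccaggc in common.

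The bHLH partners of E proteins were looked at by their promoters. Of 30 partner genes, 7 promoters were open everywhere, 5 in no library, 6 in the SMC pattern and 2 in the non-SMC pattern. These were 23.3% open everywhere, where 48.7% of all promoters were, 20% in the SMC pattern (all promoters 3.08%) and 6.67% in the non-SMC pattern (all promoters 2.45%). Those on the SMC side included the proneural genes *Neurog1*, *Neurog3*, *Atoh1* and *Atoh7* and the somite gene *Tcf15*. Those on the non-SMC side were *Lyl1*, a blood factor, and *Bhlhe22*, a neuronal repressor. At −log10 q of at least 5, *Atoh7* kept the SMC pattern (5.95 and 5.52), and the tendon factor gene *Scx* had the non-SMC pattern, 3.33% of the list each against 1.63% and 5.3% of all promoters.

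Of 11 cofactors and adaptors of E proteins, 5 promoters were open in all 4 libraries and 2, *Cbfa2t3*, which encodes the corepressor ETO2, and the LIM adaptor gene *Lmo1*, had the SMC pattern. The 45.5% open everywhere was near the 48.7% of all promoters, and 18.2% had the SMC pattern against 3.08%. Neither passed a −log10 q of 5 in either SMC line, with 3.04 and 4.22 at *Cbfa2t3* and 0.0274 and 3.39 at *Lmo1*. The *Lmo1* peak of SMC line 1 was among the weakest of its library, at percentile 0.304. Of 17 genes of the BMP pathway, which drives *Id* transcription, 13 promoters were open in all 4 libraries, and *Acvrl1*, a type I receptor gene, had the SMC pattern with weak peaks of 3.09 and 2.67. The shares were 76.5% open everywhere, against 48.7% of all promoters, and 5.88% with the SMC pattern, against 3.08%. At −log10 q of at least 5 the first share was below that of all promoters, with 2 of 17 open everywhere (11.8%, all promoters 21.4%). By the same threshold *Smad9*, a receptor-regulated SMAD gene, and *Smad6*, an inhibitory one, had the non-SMC pattern, 11.8% of the list against 5.3% of all promoters. *Smad9* had fold enrichments of 4.30 and 3.89 for the SMC lines, and 12.5 and 5.75 for the non-SMC lines, and *Smad6* had 2.70, 2.89, 6.82 and 6.70.

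The genes of these lists whose promoters were most like that of *Tcf4*, with the same presence or absence at a −log10 q of 5 in 4 of 4 libraries, were *Scx*, *Smad9* and *Smad6*. With 4 libraries, many unrelated promoters share such a pattern, and 1162 of all promoters did.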

How the data were processed

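ATAC-seq peak lists of 2 SMC and 2 non-SMC lines were analysed, 1 list per line. Per the supplement of the study, the authors mapped paired-end reads to mm10 with Bowtie2 2.3.4, removed duplicates with sambamba and called peaks in each library with MACS2 2.1.1. No blacklist or mitochondrial filter and no shift of reads is given in the sources used here. The deposited values are the fold enrichment of each peak, a ratio of (pileup + 1) to (local background + 1), and the −log10 p and −log10 q of MACS2. An integer score column deposited with them was not used. No reads or input control were used here, so signal outside peaks is unknown and an absent peak means that the caller did not report one.

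Chromosomes 1 to 19, X and Y were used, which left out 61 to 85 peaks of a list. Pileup and local background were worked back from fold enrichment and −log10 p for all but 3 to 5 peaks of a list. This step and the merging were tested on simulated data, where 99.98% of 4898 peaks were recovered within 1%. Peaks of the 4 lists that overlapped by at least 1 bp were joined into regions. Thinning to a common depth was done on called peaks, not on reads. The pileup of each peak was drawn down at random, in 1 draw, to a genome background of 0.228, 50% of the lowest library's. Peaks with a Poisson p of at most 0.01 were kept, so thinning could only remove peaks. This left 66572 and 59576 peaks for the SMC lines, and 60036 and 76232 for the non-SMC lines. Genes are those of GENCODE M21, promoters are the 6 kb centered on the 5′ end of the gene, and a stricter threshold was a −log10 q of at least 5. A region's motifs were searched, on either strand, in the 200 bp centered on the summit of its most enriched peak. Python 3.11.15, pandas 2.3.3, scipy 1.17.1, pysam 0.24.0 and bedtools 2.31.1 were used.

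All 7 genes were named, with up to 3 regions per gene for each 1-sided pattern and the most enriched region shared by all lists, ranked by mean percentile of fold enrichment. The other regions named in the text were chosen after their values were seen. Genes of the partner, cofactor and BMP lists were named by a 1-sided promoter pattern, and other genes by a 5′ end in a window, except that 1 gene of these lists is not reported here by name. The members, lists and motifs were chosen with earlier results of these data known. Whether the 2 libraries of a type came from separate animals is not given in the labels.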

Additional observations from a re-analysis of the deposited data

Results flagged for a closer look

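In 5 of the 7 windows, the SMC line of pair 1 had fewer peaks than the non-SMC line of the same number, while in pair 2 the SMC line had more. The differences, as SMC minus non-SMC, were −5 and 4 at *Tcf3*, −24 and 5 at *Tcf4*, −8 and 12 at *Tcf12*, −9 and 47 at *Id3* and −2 and 5 at *Id4*. Whether the pairs differ was not tested, with a single library per type in a pair. The genome background of the libraries moved the same way, with SMC below non-SMC in pair 1 (0.456 and 1.49 reads per position) and above it in pair 2 (1.54 and 0.639). After all libraries had been thinned to a common depth, the counts for the SMC lines and then the non-SMC lines were 9, 8, 8 and 8 at *Tcf3*, 14, 16, 18 and 18 at *Tcf4*, 7, 7, 12 and 8 at *Tcf12*, 7, 32, 10 and 7 at *Id3* and 3, 10, 4 and 4 at *Id4*.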

How the results depend on the processing

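With a −log10 q of at least 5, 3 regions had the SMC pattern, 10 the non-SMC pattern and 6 all lists, and 4 promoters stayed open in all lists. Thinning to a common depth left 9 regions and 4 promoters open in all lists, and a reciprocal overlap of 50% left 9 such regions. Thinning lowered the depth of every library, the shallowest included, and called no new peaks, so a shared region could only be lost. Windows of 10 kb on each side held 8 regions of each 1-sided pattern, and windows of 100 kb held 38 and 32. A promoter of 1 kb left 4 genes open in all lists. Leaving out *Id1* and *Id3*, chosen after seeing the data, gave 9 SMC-pattern regions and 13 shared ones among 236 (3.81% and 5.51%). Leaving out 1 library asks for a peak, or for its absence, in 1 line of that type where 2 were asked before. It gave 20 to 124 SMC-pattern regions, 20 to 72 non-SMC-pattern regions, 23 to 29 shared regions, 7 promoters and a mean difference in peaks from −27 to 61. The highest SMC count, 124, came without SMC line 1. The median background at *Id1* in SMC line 1 was 14.0 over peaks with −log10 q of at least 5. The pairing by line number was examined as a replicate block within each pair: pair 1 gave 55 SMC-pattern, 95 non-SMC-pattern and 33 shared regions and a difference of −39 peaks, and pair 2 gave 143, 68, 34 and 73. The labels do not say what a number shares. Of the 55 regions named by pattern, 10 of 16 SMC, 10 of 18 non-SMC and 9 of 21 shared regions kept their pattern after thinning, among them the intron region of *Tcf12*, the region past *Id2* and 5 of the 6 non-SMC regions of *Tcf4*. Of the 8 regions with printed sequences, the non-SMC region of *Id4* and the shared region of *Id1* lost theirs. With motifs counted within 50 bp, CAGCTG fell to 19.05% of shared regions (all shared regions from 13.5% to 6.86%), and GGCGCC fell to 28.6% (all from 12.5% to 6.18%). The narrower stretch lies inside the wider one, so a share could only stay or fall. The depth of 1 library per line limits all absent peaks to those the caller could report.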
